A study of Mus musculus with 4 samples.

Results

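The moderately tall regions described here are called regions of a CUT&RUN table whose highest coverage signal, the height, was 5, 6 or 7 steps of 1.9 (9.5 for 5 steps) and that overlapped the 1 kb either side of an end of a protein-coding gene. They lay on chromosomes 1 to 19 of mm10, without chromosomes 5, 10 and 15. There were 2100 of them among 1578514 regions in the table, and 43789 regions of these heights lay anywhere on the 16 chromosomes. Of the 2100, 1617 had a highest signal of 5 steps, 393 of 6 steps and 90 of 7 steps. Height chose these regions and is given as a description only. They were set beside the 11088 regions at gene ends with a highest signal of 3.8, the lowest height of the same set of regions.

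Cultured primary mouse neural stem cells, wild type by label and made to overexpress Six3, were kept for 3 h in B-27-supplemented neurobasal medium in place of medium with EGF and FGF2. The series had 3 libraries against FLAG-tagged Six3 and 1 with IgG. The single table analysed here gives no value per library and does not say which libraries it combines. Library depth is therefore unknown, nothing below compares FLAG with IgG, and no value has a replicate error. Intervals are exact binomial, Poisson (for ratios of counts) or order-statistic intervals at the 95% level; they treat regions, promoters or genes as independent and cover counting error only.

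Six3 is a homeobox transcription factor that patterns the anterior forebrain and the eye and can act as a repressor with Groucho-type (Tle) corepressors. CUT&RUN releases the DNA around an antibody-bound protein by tethered micrococcal nuclease, which also cuts accessible chromatin at a low level without a target. Promoters, the sequences just before gene starts, are often accessible and, in many mammalian genes, rich in the dinucleotide CpG; promoters of odorant and vomeronasal receptor genes are mostly poor in it.

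The promoters under the tallest of these regions show the range of sequence that they covered. Each line gives the 250 bases before and 50 from a RefSeq start (GRCm38.p6, the coordinates of mm10), read 5′ to 3′ in the direction of the gene, with every CpG in capitals. The first 3 had a region of height 7 steps whose summit, the stretch of highest signal, lay in the 250 bp before the RefSeq start printed, and were taken by summed signal from 9 such genes with at least 150 promoter bases covered, after their values were seen.
Pld2, chr11:70540022-70540321, plus strand: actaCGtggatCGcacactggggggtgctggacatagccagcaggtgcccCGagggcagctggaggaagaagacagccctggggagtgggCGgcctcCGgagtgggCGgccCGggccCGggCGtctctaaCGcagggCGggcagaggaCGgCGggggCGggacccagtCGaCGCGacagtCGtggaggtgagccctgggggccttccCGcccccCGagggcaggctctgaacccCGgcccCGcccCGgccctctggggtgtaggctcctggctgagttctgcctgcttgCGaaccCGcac
Cog4, chr8:110846350-110846649, plus strand: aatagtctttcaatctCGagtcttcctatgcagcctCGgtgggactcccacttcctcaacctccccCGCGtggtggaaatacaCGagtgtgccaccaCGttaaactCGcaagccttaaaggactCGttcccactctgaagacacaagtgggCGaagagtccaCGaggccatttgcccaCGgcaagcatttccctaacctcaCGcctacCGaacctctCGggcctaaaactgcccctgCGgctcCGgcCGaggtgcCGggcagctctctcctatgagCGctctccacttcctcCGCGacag
Rhbdl2, chr4:123787625-123787924, plus strand: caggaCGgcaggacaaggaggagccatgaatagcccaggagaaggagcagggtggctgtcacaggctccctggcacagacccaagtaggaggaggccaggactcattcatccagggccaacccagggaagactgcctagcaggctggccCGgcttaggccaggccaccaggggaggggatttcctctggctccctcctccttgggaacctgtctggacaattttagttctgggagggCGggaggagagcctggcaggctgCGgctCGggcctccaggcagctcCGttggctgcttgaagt
The regions over Pld2, a phospholipase D gene, and Cog4, a subunit of the Golgi tethering complex, covered all 300 bases of promoters with 25 and 21 CpG. The region over Rhbdl2, a rhomboid protease gene, covered all 300 bases of a promoter with 6 CpG. Counted along the gene from the RefSeq start printed here, with negative positions before it, the summits lay at -141 bp in Pld2 and in Cog4 and at -56 bp in Rhbdl2. For Cog4 and Rhbdl2 that start is also the outer end of the gene. The Cog4 region also touched the start of Sf3b3 on the opposite strand, with its summit 347 bp into Sf3b3. Pld2 has an outer end farther upstream, from which its summit lay at 639 bp, inside the gene. All other summit positions below are from the outer gene end, unless a RefSeq start is named.

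Genes of the lists described below with a tall region over at least 150 of the 300 promoter bases numbered 3: Aurka, encoding the mitotic kinase Aurora A, Bub1, encoding a kinase of the spindle checkpoint, and Pck1, encoding an enzyme of gluconeogenesis.
Aurka, chr2:172370521-172370820, minus strand: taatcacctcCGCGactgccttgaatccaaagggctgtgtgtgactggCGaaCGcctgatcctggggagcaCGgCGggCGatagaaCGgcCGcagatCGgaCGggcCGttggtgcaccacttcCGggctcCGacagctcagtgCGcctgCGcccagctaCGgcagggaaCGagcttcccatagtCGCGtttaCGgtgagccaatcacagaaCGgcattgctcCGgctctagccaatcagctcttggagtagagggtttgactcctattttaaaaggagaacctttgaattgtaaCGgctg
Bub1, chr2:127831810-127832109, minus strand: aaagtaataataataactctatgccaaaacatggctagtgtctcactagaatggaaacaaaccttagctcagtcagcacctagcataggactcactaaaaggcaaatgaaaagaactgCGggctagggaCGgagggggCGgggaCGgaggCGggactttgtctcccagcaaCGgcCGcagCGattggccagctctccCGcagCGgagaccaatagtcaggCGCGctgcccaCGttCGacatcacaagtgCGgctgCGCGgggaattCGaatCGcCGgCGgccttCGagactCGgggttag
Pck1, chr2:173152823-173153122, plus strand: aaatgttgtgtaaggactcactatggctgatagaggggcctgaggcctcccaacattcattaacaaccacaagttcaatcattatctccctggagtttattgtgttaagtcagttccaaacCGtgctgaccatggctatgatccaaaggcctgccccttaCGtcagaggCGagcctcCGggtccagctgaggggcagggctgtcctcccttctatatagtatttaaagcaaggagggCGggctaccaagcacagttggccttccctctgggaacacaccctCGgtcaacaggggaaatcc
Aurka had a region of height 6 steps over 247 promoter bases with 24 CpG. The same region touched the start of Cstf1 on the opposite strand. Its summit lay at -68 bp from the outer start of Cstf1 and 309 bp into Aurka from its outer end. Bub1 had a region of height 5 steps over all 300 bases with 23 CpG, and Pck1 one of 5 steps over 200 bases with 6 CpG. For contrast, an odorant receptor promoter follows, that of Olfr1423, the first by height and summed signal of 7 receptor genes with at least 150 promoter bases under a tall region. It was chosen after its values were seen.
Olfr1423, chr19:12036691-12036990, minus strand: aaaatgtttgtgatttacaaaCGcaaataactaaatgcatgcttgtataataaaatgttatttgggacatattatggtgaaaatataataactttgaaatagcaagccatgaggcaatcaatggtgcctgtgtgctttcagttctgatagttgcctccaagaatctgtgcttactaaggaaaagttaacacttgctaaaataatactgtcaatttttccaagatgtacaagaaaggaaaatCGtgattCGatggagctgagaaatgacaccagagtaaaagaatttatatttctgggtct
It held 3 CpG, had a GC content of 33% and lay for 158 bases under a region of height 6 steps.

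Summits of the tall regions were most frequent just before gene starts, where those of the 3.8 regions were not. Strand was known for 14149 of the 17619 genes, and distances run along the gene. In all summit counts below, a summit near more than 1 gene end or RefSeq start was counted once for each. The intervals treat these repeated counts as independent. In the tall regions, 145 of the 751 summits within 1 kb of a start lay in the 250 bp before it, which is 19.3% (16.5% to 22.3%), the fullest of the 8 bins. The next bin upstream held 112 summits and the first 250 bp of the gene held 104, and the other 5 bins held 73 to 88. For the 3.8 regions the 250 bp before the start held 480 of 4072 summits, or 11.8% (10.8% to 12.8%), the lowest of the 8 bins, and all bins held 480 to 542. Relative to the mean count per bin between 1 and 5 kb away, summits of the tall heights stood at 1.67 (1.41 to 1.96) in the 250 bp before starts, against 0.970 (0.885 to 1.06) for height 3.8. The 32 bins farther away held 69 to 112 summits of the tall heights, so 145 lay outside that range. For tall regions that touched the ends of 1 gene alone, the 250 bp before starts held 20.1% (16.9% to 23.7%). This restriction was chosen after seeing the data.

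Around gene stops the summits of the tall regions were spread more evenly. The 8 bins within 1 kb of a stop held 72 to 109 of 719 summits, and the highest, 109, lay 250 to 500 bp beyond the stop. That bin stood at 1.22 (1.002 to 1.47) relative to the bins between 1 and 5 kb away, which held 75 to 112. For the 3.8 regions the 8 bins held 485 to 541 of 4042 summits.

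**Figure D1:**
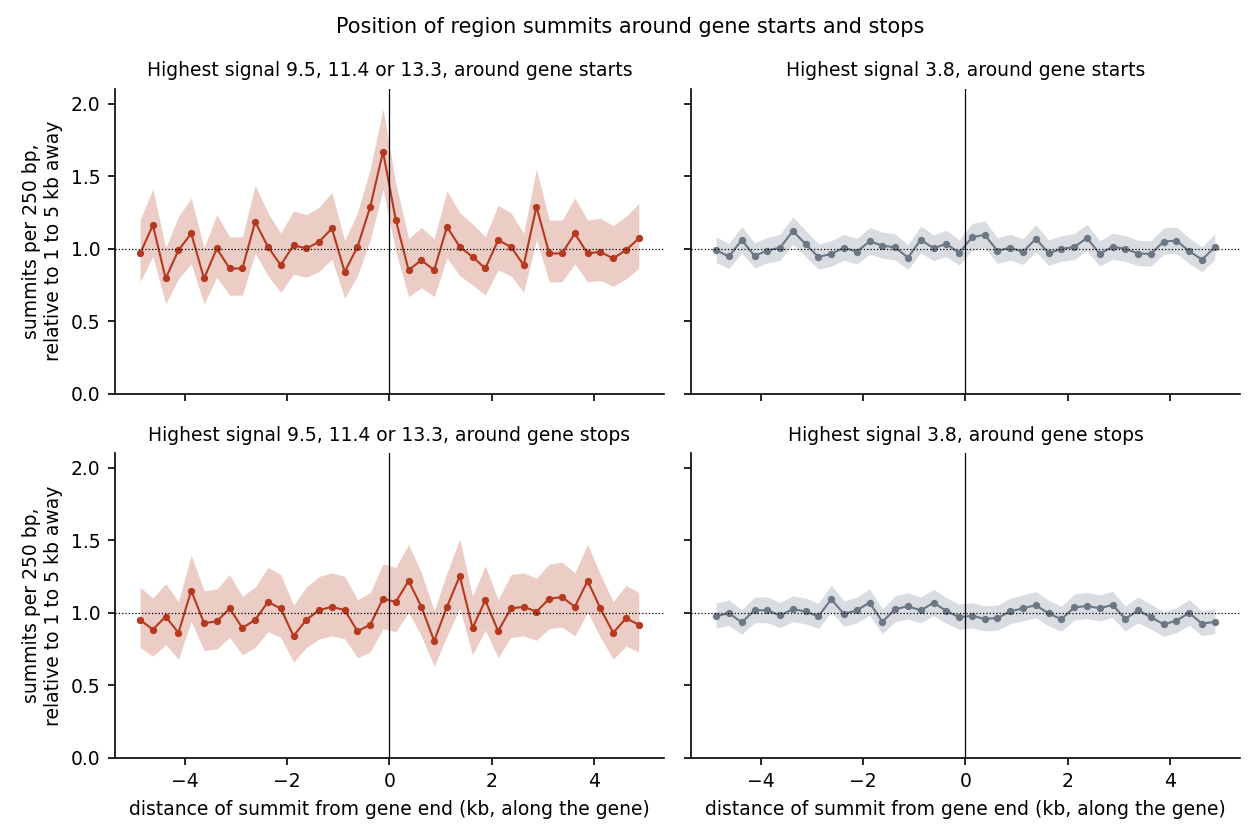
Summits per 250 bp at distances up to 5 kb from gene starts (top) and stops (bottom), divided by the mean count per bin between 1 and 5 kb away, for regions of height 5 to 7 steps (left) and 3.8 (right); shading is the 95% Poisson interval. The tall regions reach 1.67 in the 250 bp before starts, where the 3.8 regions stand at 0.970.

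Counted by whole windows instead of by summits, start and stop sides had like shares. Of the 17619 genes, 2227 (12.6%) had a tall region at an end, against 9090 (51.6%) with a 3.8 region. Among genes of known strand, 969 starts (6.85%) and 938 stops (6.63%) had a tall region. For height 3.8 these were 4444 starts (31.4%) and 4461 stops (31.5%). Tall regions that touched starts alone numbered 801 and those that touched stops alone 774, a start share of 50.9% (48.4% to 53.4%). For the 3.8 regions the counts were 4107 and 4202, a start share of 49.4% (48.3% to 50.5%). By height the start share was 50% (47.2% to 52.8%) at 5 steps, 53.7% (47.9% to 59.5%) at 6 steps and 54.1% (40.8% to 66.9%) at 7 steps. All of these intervals hold an equal split. Regions of height 5.7, in neither group compared here, had a start share of 51.3% (50.3% to 52.3%), just above it. The 8 bins around starts held 751 summits of tall regions and those around stops 719. Of the other tall regions, 388 touched only ends of genes without a known strand and 92 touched a start and a stop. Ends of genes without a known strand had a tall region in 447 of 6940 (6.44%), against 2146 (30.9%) with a 3.8 region.

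Tall regions touched the ends of more than 1 gene somewhat more often than the 3.8 regions. Ends of 2 genes were touched by 244 of the 2100 tall regions, 11.6% (10.3% to 13.1%), against 944 of 11088, 8.51% (8.001% to 9.05%), of the narrower 3.8 regions. Such a region was counted for each of its genes, and where genes are named the neighbour is not always given. Among tall regions 69 touched the starts of a pair of genes on opposite strands, the arrangement of a shared, bidirectional promoter, which is 3.29% (2.57% to 4.14%) against 2.43% (2.15% to 2.73%) for height 3.8. A further 55 touched the stops of a pair on opposite strands, 2.62% (1.98% to 3.40%) against 1.91% (1.67% to 2.18%). The start of 1 gene and the stop of another were touched by 54, 2.57% (1.94% to 3.34%) against 1.46% (1.25% to 1.70%). Both ends of 1 gene were touched by 30, a lower share, 1.43% (0.966% to 2.03%) against 2.97% (2.66% to 3.30%). The wider tall regions had the higher share in each case except both ends of 1 gene. The part of width in these shares was not tested.

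CpG counts were higher under tall regions than under 3.8 regions where any overlap counted. The 14043 RefSeq promoters that lay wholly inside a gene-end window had a median of 15 CpG, with quartiles of 4 and 25. Of these, 404 (2.88%) were overlapped by a tall region and 1582 (11.3%) by a 3.8 region. The median was 17 CpG (16 to 19) under tall regions and 14 (13 to 15) under 3.8 regions. The lower quartiles were 9 under tall regions and 4 under 3.8 regions, and the upper quartiles 25 and 24. Where at least 150 of the 300 bases had to be covered, the 283 promoters under tall regions had a median of 16 CpG (15 to 18), an interval that holds the 15 of all promoters. Of these 53.0% (47.0% to 58.9%) lay above 15 CpG, against 47.9% of all, a share the interval also holds. Median GC content was 58.3% under tall regions and 56.7% under 3.8 regions.

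Of promoters with at most 3 CpG, 44 of 3311 were under a tall region, a share of 1.33% (0.967% to 1.78%). The share was 2.63% (2.02% to 3.36%) with 4 to 9 CpG, 4.09% (3.41% to 4.85%) with 10 to 19 and 3.78% (3.09% to 4.59%) with 20 to 27. It was lower again, 2.77% (2.19% to 3.45%), in the promoters richest in CpG, with 28 to 65. The 3.8 regions covered every one of these 5 classes alike, between 10.7% and 11.9%. Regions of the 0.48-step set, a second set in the table whose heights are multiples of 0.48 and which may be on another scale, covered between 11.2% and 13.8%. Summits before starts were frequent in both CpG-rich and CpG-poor starts. Of summits of the tall heights within 1 kb of a RefSeq start, 17.2% (13.8% to 21.1%) lay in the 250 bp before starts above the median CpG and 22.0% (17.6% to 26.9%) before the others, against 11.7% and 11.5% for height 3.8. The tall counts were 74 of 430 summits around 6729 starts and 72 of 327 around 7314 starts. The 2 shares have different totals, and the counts before the start were alike. For starts above the median CpG, another of the 8 bins was fuller, with 84 summits against 74.

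**Figure D2:**
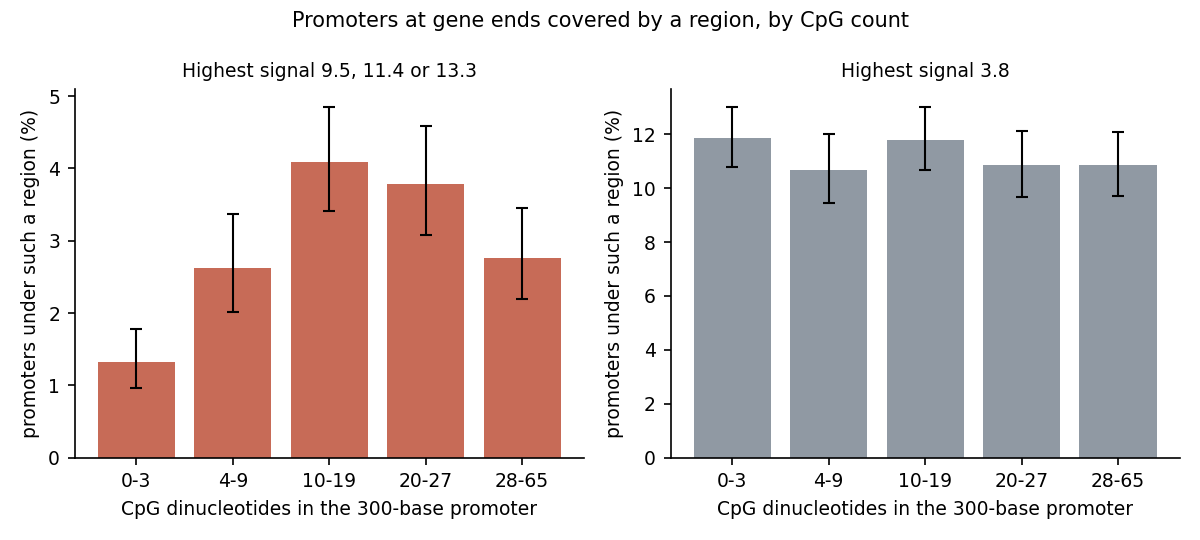
Share of promoters (percent, with 95% exact binomial intervals) overlapped by a tall region (left) or a 3.8 region (right), by the number of CpG dinucleotides in their 300 bases. Under tall regions the share is 1.33% with at most 3 CpG and 4.09% with 10 to 19, while under 3.8 regions it stays between 10.7% and 11.9%; the vertical scales differ.

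Searches for short motifs gave no excess under the tall regions. The homeodomain core TAAT (either strand, so also ATTA) was in 181 of the 404 promoters, 44.8% (39.9% to 49.8%), against 52.5% (49.97% to 55.0%) under 3.8 regions and 51.7% of all 14043. TGATAC (either strand, so also GTATCA), a core reported for homeodomains related to Six3, was in 4.95% (3.05% to 7.54%), against 4.80% (3.803% to 5.98%) under 3.8 regions and 4.58% of all. Neither motif holds the other, but matches of both can share a T where they meet, and each was counted by itself. CpG and GC content move with the share of TAAT, and their part in it was not tested. In the sequences above Aurka held TAAT or its reverse 1 time, Bub1 3 times, Pck1 2 times and Olfr1423 4 times, and Pld2, Cog4 and Rhbdl2 had 0.

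Among gene classes defined by symbol, vomeronasal receptors, histones, keratins and odorant receptors had the 4 lowest shares with a tall region. Against 12.6% over all genes, 60 of 1027 odorant receptor genes had one, 5.84% (4.49% to 7.46%), and 12 of 335 vomeronasal receptor genes, 3.58% (1.86% to 6.17%). These receptors detect odours and pheromones and are encoded in large clusters. The same classes had 3.8 regions at 44.7% and 35.5%, against 51.6%. Histone genes had 3 of 78 with a tall region, 3.85% (0.800% to 10.8%), and 24.4% with a 3.8 region. Short genes have overlapping windows at their ends and so offer less sequence. In the first of 5 equal classes by gene length, up to 4203 bp, the odorant and vomeronasal receptors had tall regions in 66 of 1154, 5.72% (4.45% to 7.22%), against 261 of 2298 other genes that are not histones, 11.36% (10.1% to 12.7%). Their shares with 3.8 regions were 41.3% and 46.4%, and their median lengths 945 and 2414.5 bp. The highest regions in the receptor classes were those of Olfr552 and Olfr530, with 7 steps each, and of Vmn1r68 and Vmn1r23, with 6 steps each.

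The receptor promoters were CpG-poor, and 9 of all 1141 such promoters were under a tall region, 0.789% (0.361% to 1.49%), against 12.01% under 3.8 regions. Restricted to promoters with at most 3 CpG, 9 of 1072 receptor promoters, 0.840% (0.385% to 1.59%), and 35 of 2239 other promoters, 1.56% (1.09% to 2.17%), were under a tall region. These intervals overlap. The matching shares for 3.8 regions were 12.2% and 11.7%.

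The highest shares among the 19 classes were those of ribosomal protein and Tmem genes. Cytosolic ribosomal protein genes had 13 of 66 with a tall region, 19.7% (10.9% to 31.3%), and mitochondrial ribosomal protein genes 12 of 71, 16.9% (9.05% to 27.7%). Both intervals hold the background. Genes named Tmem, a name given to transmembrane proteins, had 35 of 195, 17.9% (12.8% to 24.1%), just above it, and Zfp-type zinc finger genes 62 of 413, 15.01% (11.7% to 18.8%). Named members were Rps25 and Rpl22 among the cytosolic ribosomal proteins, both 5 steps, and Mrps6 (6 steps) and Mrps30 (5 steps) among the mitochondrial ones. The summit at Mrps6 lay at -574 bp from its start, and at -560 bp from the start of Slc5a3, which the same region touched. At Rps25 and Rpl22 the regions were on the stop side, with summits 2384 bp beyond the stop and at -1031 bp from it. Both summits lay outside the 1 kb window that the regions touched. Tmem247 and Tmem230 had 6 steps each, both on the stop side. The summit at Tmem247 lay 2158 bp beyond the stop, outside the window, and that at Tmem230 at -188 bp from the stop.

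Of the remaining classes, only predicted genes and keratins had intervals that did not hold the background. Solute carriers had 44 of 315 (14.0%), cytochrome P450 genes 10 of 77 (13.0%), interleukin and chemokine genes 14 of 113 (12.4%), potassium channel genes 10 of 81 (12.3%), small GTPases 11 of 96 (11.5%) and Hox genes 3 of 30 (10%). Homeobox genes of 10 other named families, that of Six3 included, had 7 of 65, 10.8% (4.44% to 20.9%), Sox and Fox genes 4 of 54 (7.41%), protocadherins 4 of 65 (6.15%, up to 15.01%) and serpin and kallikrein genes 8 of 88 (9.09%). Predicted genes named Gm or Rik had 103 of 1131, 9.11% (7.49% to 10.9%), and 42.0% with a 3.8 region, and keratin genes 4 of 80, 5% (1.38% to 12.3%). Tall examples were the sodium phosphate cotransporter gene Slc34a3 and the zinc transporter gene Slc30a6 with 7 steps each, Pax7, a myogenic and neural crest factor, with 7 steps, its summit at -1110 bp from the start, and the histone variant gene H2az2 with 7 steps. Others were Cyp27a1 (6 steps), the potassium channel genes Kcnj8 and Kcnj10 (6 steps each), Foxj2 and Foxj3 (6 steps each), Hoxa7 and Hoxa10 (5 steps each), Pcdh8 and Pcdh1 (5 steps each), Klk1b8 (7 steps), Serpini1 (6 steps), Il9r and Il1rl2 (6 steps each), Krtap9-5 (6 steps), Krtap27-1 (5 steps), H2ac11 (5 steps), and Rab29 and Rab42 (5 steps each). The predicted genes Gm7592 and Gm17067 had 7 steps each.

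**Figure D3:**
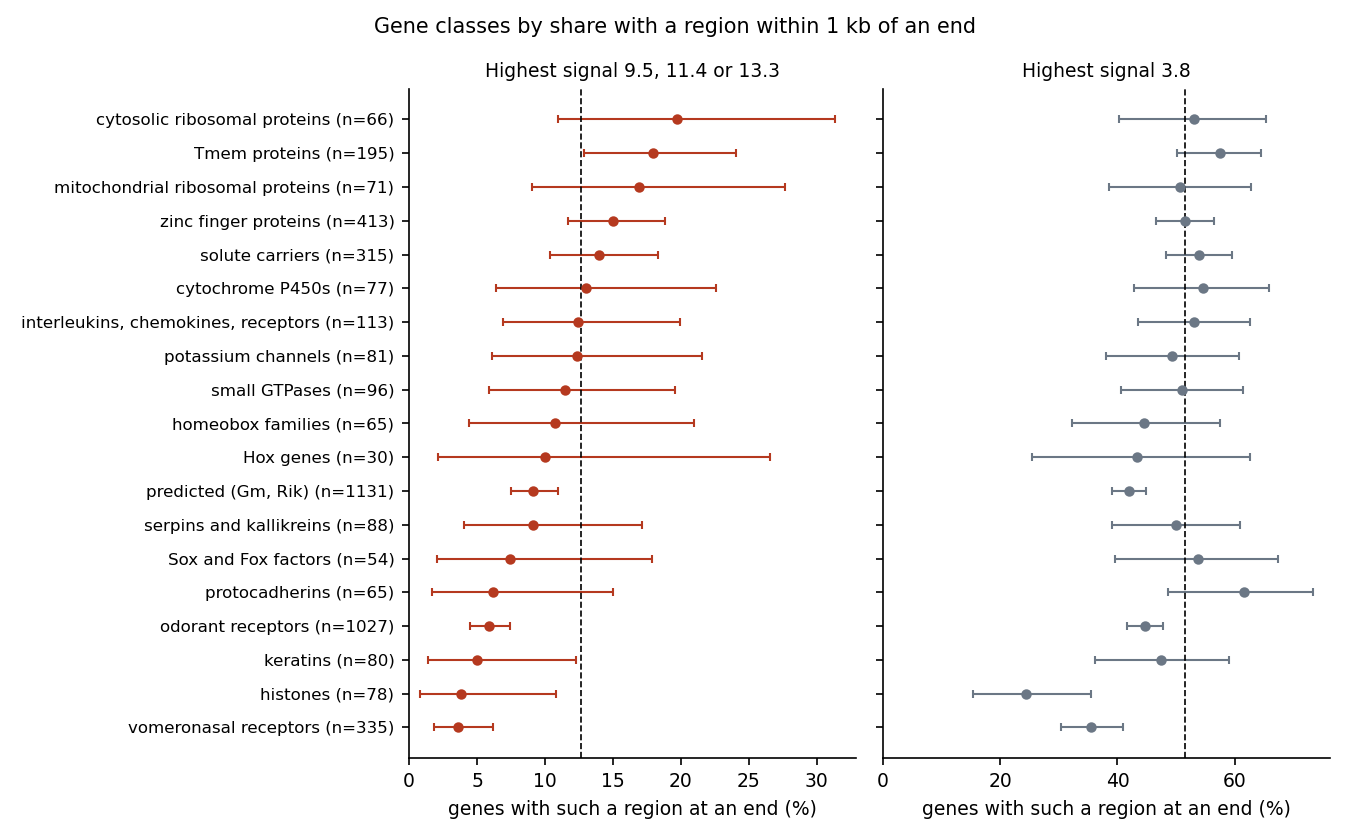
Share of genes with a tall region (left) or a 3.8 region (right) within 1 kb of an end, by gene class, with 95% exact binomial intervals; dashed lines are the shares over all 17619 genes, 12.6% and 51.6%. Odorant and vomeronasal receptors and histones lie below both lines, and the 2 ribosomal protein classes have intervals that hold the left line.

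Genes of forebrain development, neural cell types, signalling pathways and other tissues were taken from 18 lists. Over the lists together, 40 of 303 genes had a tall region, 13.2% (9.60% to 17.5%), against 12.6% of all genes, and 52.1% had a 3.8 region, against 51.6%. The median of the highest 1.9-step signal at a gene's ends was 5.7 in the lists together and over all genes. Six3 itself had no tall region within 1 kb of its ends. Its only region of the 1.9-step set there had a height of 3.8, with a summit 260 bp beyond its stop. Among the relatives of Six3 and their partners of the Eya, Dach and Tle families, 2 of 14 on these chromosomes had a tall region. Eya3, a transcriptional coactivator and phosphatase, had 6 steps with its summit 777 bp beyond the stop, at chr4:132725148-132725874. The same region also touched an end of the neighbouring gene Xkr8, whose strand was not known. Six5 had 5 steps with its summit at -1319 bp from the start, at chr7:19093048-19093618, which touches the window only at its edge.

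Among forebrain and eye patterning factors 2 of 21 had one, the TALE homeobox gene Meis2 and the eye field gene Rax, with 5 steps each. Interneuron and striatal genes had 5 of 26, 19.2% (6.55% to 39.4%). Th, encoding tyrosine hydroxylase, the rate-limiting enzyme of dopamine synthesis, had 6 steps with its summit 60 bp into the gene, at chr7:142899028-142900031. Gad1, encoding a GABA-synthesising enzyme, had 6 steps with its summit at -420 bp from its stop, inside the gene. Penk, encoding the enkephalin precursor, and Calb2, encoding calretinin, had 5 steps each. Neural stem cell and radial glia genes had 0 of 15, which allows up to 21.8% by the exact interval, so the background lies within it. For that list 8 of 15 had a 3.8 region.

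Pan-neuronal genes had 4 of 16, all with 5 steps: Rbfox3, the NeuN antigen gene, Tubb3, neuronal tubulin, Eno2, neuronal enolase, and Ncam1, an adhesion molecule. The summit at Tubb3 lay 1097 bp into the gene, and those at Rbfox3 and Eno2 on the stop side. Astrocyte genes had 2 of 13, Ndrg2 with 7 steps at chr14:51906072-51906899 and Aldoc, aldolase C, with 5 steps. The oligodendrocyte list had 1 of 13, the myelin regulator gene Myrf with 5 steps. Ependymal and cilia genes had 3 of 17, with 6 steps at the tektin gene Tekt2 and 5 steps at Tppp3 and at Mcidas, a regulator of multiciliated cells. The Tekt2 region also touched the start of Adprhl2. Its summit lay 832 bp into Adprhl2 and 1250 bp beyond the stop of Tekt2.

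Of the signalling pathways, Notch had 1 of 18, Wnt 2 of 23, Hedgehog 1 of 13 and BMP 2 of 20. Nrarp, a target and feedback inhibitor of Notch, had 6 steps with its summit at -800 bp from the start, at chr2:25179718-25180097. Sufu, an inhibitor of Hedgehog signalling, had 6 steps with its summit 1564 bp beyond the stop. In the Wnt pathway the coreceptor gene Lrp5 and the feedback inhibitor gene Axin2 had 5 steps each, and in the BMP list the homeobox gene Msx2 and the ligand gene Tgfb1 had 5 steps each, on the stop side. Cell cycle genes had 5 of 23, 21.7% (7.46% to 43.7%), and a median highest signal of 7.6 against 5.7 over all genes. Besides Aurka and Bub1, shown above, these included Ccne1, cyclin E1, with 5 steps on the start side and Cdkn1b, the p27 inhibitor, with 5 steps on the stop side. The intervals of all 18 lists hold the background.

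In lists of other tissues, liver genes had 2 of 18, Cyp7a1, the rate-limiting enzyme of bile acid synthesis, with 6 steps and Pck1 with 5 steps, its summit 72 bp into the gene. Skeletal muscle genes had 1 of 14, the calcium channel gene Cacna1s with 5 steps. Endothelial and pericyte genes had 3 of 14, with 6 steps at the transporter gene Slco1a4 and at Kcnj8 and 5 steps at Anpep. Blood and microglia genes had 2 of 16, the myeloid factor gene Spi1 with 6 steps and Aif1 with 5 steps. Housekeeping genes had 2 of 11, the elongation factor gene Eef1a1 with 6 steps, its summit at -803 bp from the start, and Sdha, a succinate dehydrogenase subunit, with 5 steps.

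Among the 8 named genes with tall regions at both ends, Fcgr3, an IgG Fc receptor gene, and Chil4, a chitinase-like gene, had 3 tall regions each, the only genes with 3. Fcgr3 had heights of 6 steps and 5 steps on its start side and 6 steps on its stop side. Chil4 had 6 steps and 5 steps on its stop side and 5 steps on its start side, and its neighbour Chil3 had 6 steps at each end. The others were Mroh2a (7 steps at the start and 6 steps at the stop), the kinase gene Smok2b (7 steps and 6 steps), the class I histocompatibility gene H2-Q7 (6 steps and 6 steps), Slc30a6 (7 steps and 5 steps) and Pde12 (7 steps and 5 steps). In all, 127 of the 2227 genes had both ends touched by tall regions, 5.703% (4.78% to 6.75%). This count includes genes with both ends touched by the same region, such as the short genes Olfr552 and Avp. Among genes with a 3.8 region the matching share was 21.6% (20.7% to 22.4%). Single ends with a tall region were also fewer, 6.85% of starts and 6.63% of stops, against 31.4% and 31.5% for height 3.8. The 2 both-ends shares therefore do not show that tall regions avoid pairs of ends. The part of these rates per end was not tested. By number of tall regions and then summed signal, Smok2a and the zinc finger gene Zfp992 followed, with 2 each.

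Tall regions were dense around several of the genes chosen for the number, position or summed signal of their tall regions. The counts below include the regions that chose the genes. High counts are therefore partly fixed by the choice and are a description only. In bins of 500 kb, the median was 10 regions of the tall heights, and the 95th percentile of the 4040 bins was 19. The bin of Chil3 and Chil4 had 40, that of Zfp985 and Zfp982 also 40, that of Smok2a and Smok2b 33, that of Mroh2a and Ugt1a1 26, and those of Fcgr3 and Zfp992 25 each. Regions of height 3.8 numbered 81 in the bin of Chil3 and Chil4, 60 around Zfp985, 46 around Smok2a and 11 around Zfp992, against a median of 70. Slc30a6, with 13 in its bin, and H2-Q7, with 18, lay below the 95th percentile, and Pde12, with 21, lay above it. The part of this local density in the results for these genes was not tested.

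The 10 genes whose regions of height 7 steps had the highest summed signal included several of the same loci. Zfp985 led with 17419.2 (signal times bp), followed by Mroh2a with 14702.2, Ugt1a1, a bilirubin-conjugating enzyme gene, with 7951.5, and Zfp982 with 7575.3. The rest had 5390.3 to 6306.1: the splicing factor gene Srrm1, the transcriptional coregulator gene Zmiz1, Fjx1, Slc34a3, the lipid antigen-presenting gene Cd1d1, and Vwa2. Zmiz1 and Vwa2 lay in bins with 10 and 14 regions of the tall heights. At Vwa2 the summit lay at -460 bp from the start, and at Zmiz1 1140 bp beyond the stop.

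Of the 2227 genes, 2100 had a single tall region. The bin with the most, chr7:30500001-31000000, had 9 for 32 genes with an end in it, at Atp4a, Etv2, Ffar2, Hspb6, Krtdap, Lin37, Prodh2 and Proser3, chosen after their values were seen. By chromosome, the share of genes with a tall region ran from 10.6% on chromosome 14 to 16.03% (13.4% to 18.9%) on chromosome 19, and that with a 3.8 region from 47.0% on chromosome 7 to 56.2% on chromosome 3. By gene length the share was 9.34% in the class of the shortest genes and between 13.0% and 14.2% in the other 4, against 44.3% and 52.4% to 55.0% for 3.8 regions. Genes with a tall region had a median length of 18975 bp (17740 to 20528), those with a 3.8 region 18608 bp (18019 to 19171), and all genes 17138 bp.

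Tall regions at gene ends were wider and more varied in width than the 3.8 regions. Their median width was 590 bp (576 to 602), with quartiles of 427.75 and 805.5 bp, against 456 bp (454 to 459), with quartiles of 387 and 554 bp. Of the tall regions 25.7% were at least 800 bp wide, against 4.84% of the 3.8 regions. By height the median was 586 bp at 5 steps, 597 bp at 6 steps and 632.5 bp at 7 steps. Width comes from the same calls as the height that chose the regions, so these values are a description. Every region of the 1.9-step set had a summed signal of at least 874, so a region of height 3.8 had to be wide to be listed: the narrowest at a gene end was 236 bp, against 145 bp among the tall regions. Tall regions anywhere on the 16 chromosomes had a median width of 544 bp, and 3.8 regions 449 bp.

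The widest tall regions were 3998 bp at Smok2a (6 steps), 3680 bp at Zfp985 (7 steps), 2482 bp at Tppp3 (5 steps), 2303 bp at Nadk, encoding NAD kinase (5 steps), and 2296 bp at Mroh2a (7 steps). The narrowest were 145 bp at Gm10264, 149 bp inside Axl near the start of Hnrnpul1, 152 bp at Armh3, 155 bp at Cox7a2l and 165 bp at Agbl2. Armh3 had 6 steps and the others 5 steps. The summit of the 149 bp region lay inside Axl, at -468 bp from its stop, and at -700 bp from the start of Hnrnpul1, an RNA-binding protein gene. The mean signal over the region had a median of 4.64 in tall regions and 2.55 in 3.8 regions.

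Just outside the chosen heights, 5408 regions at gene ends had 4 steps and 18 had 8 steps. The median width was 518 bp at 4 steps, with a start share of 50.4% (48.8% to 52.0%), and 656.5 bp at 8 steps, with 7 at starts alone and 8 at stops alone. Of all regions of a height, 4.34% lay at gene ends at 4 steps, 4.75% at 5 steps, 4.92% at 6 steps, 5.18% at 7 steps and 4.56% (2.72% to 7.11%) at 8 steps, against 3.97% at 3.8. Any overlap with a window counted, and median width rose with height. The part of width in these shares was not tested.

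**Figure D4:**
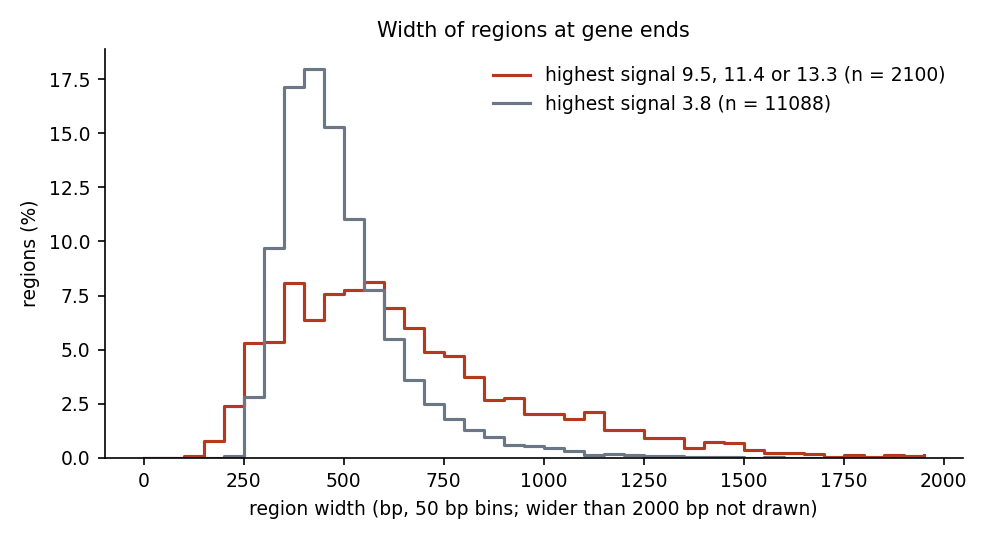
Distribution of widths in 50 bp bins, as a percentage of all regions of each kind, for the 2100 tall and the 11088 3.8 regions at gene ends. The 3.8 regions gather around their median of 456 bp, and the tall regions extend further on both sides of their median of 590 bp.

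The 0.48-step set, which the choice of regions did not use, overlapped tall and 3.8 regions of like width in like shares, within their intervals. A 0.48-step region overlapped 443 of the 2100 tall regions, 21.1% (19.4% to 22.9%), against 1959 of 11088, 17.7% (17.0% to 18.4%), of the 3.8 regions. With the 3.8 regions weighted to the widths of the tall ones, their share was 21.2%. In each of 7 width classes the intervals overlapped. Between 400 and 500 bp the shares were 19.1% (14.8% to 24.1%) in tall regions and 16.8% (15.6% to 18.04%) in 3.8 regions, and at 1000 bp or more they were 33.9% (28.6% to 39.5%) and 35.4% (28.0% to 43.3%). Regions of the tall heights away from gene ends, with a median width of 542 bp, were overlapped in 19.8% (19.4% to 20.2%).

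**Figure D5:**
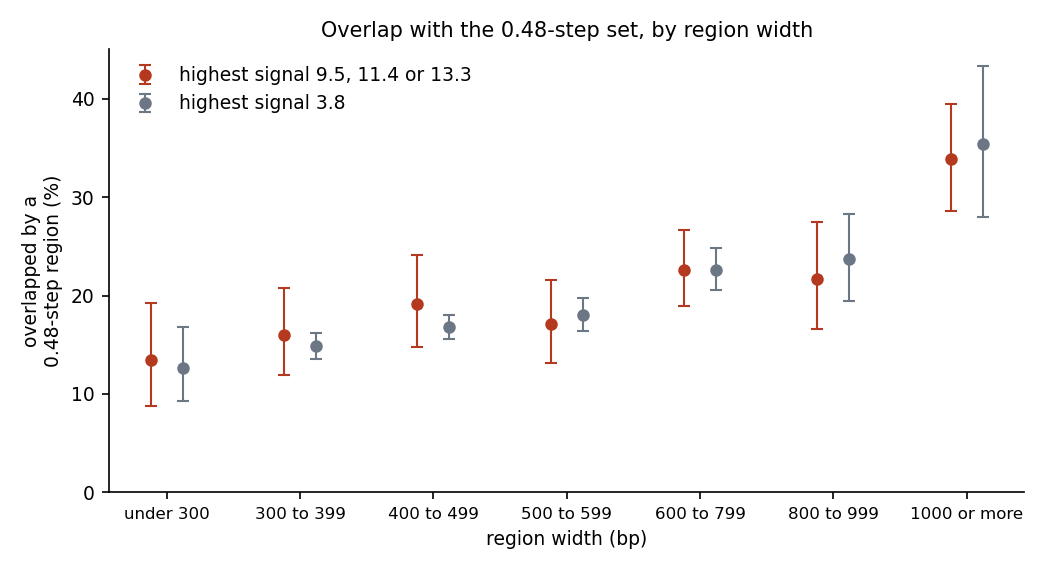
Share of regions at gene ends overlapped by at least 1 bp of a 0.48-step region, with 95% exact binomial intervals, in 7 classes of width. Shares are highest in the widest class of both kinds of region, 33.9% in tall and 35.4% in 3.8 regions of 1000 bp or more, and the intervals of the 2 kinds overlap in every class.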

How the data were processed

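The authors deposited 1 table of regions for the series in the layout of SEACR; Bowtie2, deepTools, SEACR and mm10 are named in the submitters' processing notes. Its signal columns, as deposited, hold the coverage signal summed over each region and the highest signal in it. Scaling and tool versions were not given in the sources used here. Heights within 0.001 of a whole multiple of 1.9 or 0.48 formed the step sets. Gene ends, promoters and strand came from RefSeq tables of GRCm38.p6, matched by gene ID; all 371 listed symbols matched. Strands and promoters of chromosome 18 were not used here. A region was at a gene end when it overlapped the 1 kb either side. With 1 combined table there was no test, only counts with intervals. Members and lists were chosen with earlier results of these data known. Named genes were Six3, up to 4 per list and 2 per class by height and summed signal, 10 of height 7 steps, 8 with regions at both ends, 5 with most regions, and the 5 widest and 5 narrowest. Calculations were tested on simulated data. Python 3.11.15, numpy 2.4.6, pandas 2.3.3, scipy 1.17.1 and matplotlib 3.10.9 were used.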

Additional observations from a re-analysis of the deposited data

How the results depend on the processing

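Of 33 alternative values, 19 stayed within the interval of the value reported and 14 moved beyond it; none had a test. No paired analysis was possible because the table has no column per library. The start share of one-sided tall regions stayed between 50% and 51.4%, and was 53.8% with heights of 6 and 7 steps alone. The share of tall regions at gene ends, 4.80%, was 3.16% with windows of 500 bp, 7.86% with 2 kb, 3.72% by midpoint and 4.58% without predicted genes. The share of genes with a tall region, 12.6%, was 8.33% with 500 bp, 20.3% with 2 kb, 3.03% with heights of 6 and 7 steps alone, 13.6% with chromosomes 5, 10 and 15 kept and, chosen after seeing the data, 13.26% without odorant and vomeronasal receptor genes. Median width was 569.5 bp by midpoint and 603 bp with the 3 chromosomes kept. The share of 3.8 regions overlapped by the 0.48-step set, 17.7%, was 15.3% with at least 50 bp and 21.2% weighted by width. Summits in the 250 bp before starts, 19.3%, ranged from 17.9% to 21.5% over 6 alternatives chosen after seeing the data, and median CpG, 17 (16 to 19), was 16 (15 to 18) with at least 150 bases covered, where its interval reaches the 15 of all promoters. Unknown depth limits every comparison.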
